A study of Rattus norvegicus with 23 samples.

Results

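Meg3 is a long non-coding RNA of the imprinted DLK1-DIO3 domain, and it was measured here with its neighbour Dlk1 and a run of microRNA genes in the hearts of newborn rats. The members were selected on measured values: Meg3 and Dlk1 by their gene symbols, and the microRNA genes as all probe sets with identifiers from 10887056 to 10887100. That gave 25 of the 29170 probe sets of the array, namely 1 for Meg3, 1 for Dlk1 and 23 in the identifier range. Of those 23 probe sets, 5 carry the names Mir323, Mir539, Mir382, Mir154 and Mir377 in the sources used here, and 18 are given only by identifier. The high values of Meg3 and of several microRNAs in HF diet exposed hearts, and their lower values in combination exposed hearts, are what chose them, so the comparisons of HF diet exposed hearts with controls and with combination exposed hearts are given below as descriptions with no test. The comparisons of combination and diabetes exposed hearts with controls and with each other were not themselves used in the choice and are given with their tests. They share hearts with the contrasts that were used, so these tests are not independent of the choice.

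RNA of whole hearts at postnatal day 1 was hybridised to Affymetrix Rat Gene 1.0 ST arrays, 1 array per heart. The 4 groups were controls (n = 7; dams on control diet, injected with citrate buffer), diabetes exposed (n = 6; control diet, streptozotocin at 65 mg/kg on gestational day 14), HF diet exposed (n = 5; high-fat diet from 28 or more days ahead of mating until delivery, citrate buffer) and combination exposed (n = 5; high-fat diet and streptozotocin). Streptozotocin destroys the insulin-producing cells of the dam, and insulin given to the dams held the hyperglycemia within a range rather than removing it. Male and female pups were pooled within groups. Sample codes share a stem among some hearts: HF diet exposed hearts 3, 4 and 5 share 1 stem, as do combination exposed hearts 1 and 2 and hearts 4 and 5, which leaves 19 stems for 23 hearts. Whether a stem stands for a dam is not stated, and p-values below measure the spread between hearts whether or not they share one. All values are on the log2 scale and each probe set is centred on its own median over the 23 hearts, so a value of 0 is the middle heart for that probe set, a difference of 1 is a doubling, and levels of different genes cannot be set against each other. For the same reason the heart label could not be checked against the level of cardiac genes. The spread of a whole array had an SD between 0.16 and 0.393, widest in combination exposed heart 1. Markers of lung and thymus, tissues that lie beside the heart, averaged 3.66 in control heart 1, 0.75 in HF diet exposed heart 4, 0.526 in diabetes exposed heart 3 and at most 0.126 in the other 20 hearts.

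In mammals the DLK1-DIO3 domain is expressed by parent of origin. Dlk1, a transmembrane Notch-like ligand of fetal tissue, is read from the paternal chromosome, while Meg3 and the large microRNA cluster that follows it are read from the maternal chromosome, under an imprinting control region upstream of Meg3. The microRNAs are cut out of long maternal transcripts as hairpins, and each mature strand pairs with target RNAs mainly through its seed, bases 2 to 8. A whole-transcript array is built for long RNA, and how much of the signal at a microRNA gene came from the mature strand was not measured.

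In the RefSeq annotation of GRCr8, Dlk1 lies at chr6:134192491-134199779, Meg3 at chr6:134274056-134306249 as a lncRNA gene, and the named microRNA genes of the range run from Mir323 (chr6:134546944-134547029) through Mir539 (chr6:134563598-134563673), Mir382 (chr6:134569944-134570023) and Mir154 (chr6:134574352-134574435) to Mir377 (chr6:134576456-134576527). The genome build on which the array was designed was not found, and the positions of its probes were not used. Probe set identifiers ran in the same order as these coordinates for all 10 named genes of the domain that were looked up. The mature strands of the 5 named microRNAs, on the plus strand of the GRCr8 RefSeq annotation, are shown with the seed in capitals, because the seeds show how far apart these members are as regulators although their genes lie side by side.
rno-miR-323-5p: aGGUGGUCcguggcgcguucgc
rno-miR-323-3p: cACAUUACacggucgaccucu
rno-miR-539-5p: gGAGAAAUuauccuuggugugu
rno-miR-539-3p: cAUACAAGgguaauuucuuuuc
rno-miR-382-5p: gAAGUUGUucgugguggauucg
rno-miR-382-3p: aAUCAUUCacggacaacacuu
rno-miR-154-5p: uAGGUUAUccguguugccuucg
rno-miR-154-3p: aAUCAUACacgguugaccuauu
rno-miR-377-5p: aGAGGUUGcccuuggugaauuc
rno-miR-377-3p: uGAAUCACacaaaggcaacuuuu

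No seed occurred in more than 1 of these 10 strands. The seed of miR-539-3p, AUACAAG, also begins miR-381-3p of the same cluster, and that of miR-377-5p is found in miR-672-5p, which lies outside the domain. Between Meg3 and Mir377 the annotation holds 50 microRNA hairpin genes with 86 mature strands and 80 distinct seeds, of which 6 are shared by at least 2 genes. From Mir323 to Mir377 there are 28 hairpin genes, so the 23 probe sets do not cover every gene of the stretch. The hairpins of the 5 named genes were identical over 57.1% to 76.5% of aligned positions, with Mir382 and Mir154 the closest pair. These 2 hairpins are printed with the mature strands in capitals, to show how alike the most similar members are.
Mir382 hairpin: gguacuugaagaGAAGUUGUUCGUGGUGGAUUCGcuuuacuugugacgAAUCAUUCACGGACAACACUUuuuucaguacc
Mir154 hairpin: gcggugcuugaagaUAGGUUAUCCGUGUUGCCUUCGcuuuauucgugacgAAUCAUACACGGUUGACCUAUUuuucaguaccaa

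Meg3 was highest in HF diet exposed hearts and lowest in combination exposed hearts. In HF diet exposed hearts 1 to 5 it was 0.391, 0.083, 0.395, 0.632 and 0.375, a mean of 0.375 ± 0.195 (SD, n = 5). In combination exposed hearts 1 to 5 it was -0.734, -0.509, -0.306, -0.197 and -0.323, a mean of -0.414 ± 0.211 (SD, n = 5). Every HF diet exposed heart was above every combination exposed heart, and the difference of the means was -0.79 (SE 0.258), a 1.73-fold lower value with diabetes added to the diet. In control hearts Meg3 ran from -1.268 in heart 5 through a median of 0 to 0.461 in heart 1, with a mean of -0.129 ± 0.584 (SD, n = 7). In diabetes exposed hearts it ran from -0.585 through -0.031 to 0.718, with a mean of 0.049 ± 0.504 (SD, n = 6). Controls and diabetes exposed hearts overlapped with each other and with both other groups, and their SDs were wider than those of both groups on the diet. HF diet exposed hearts were 0.50 (SE 0.239) above controls, 1.42-fold. In the order HF diet, diabetes, control, combination, each neighbouring pair of groups overlapped.

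The comparisons that did not themselves enter the choice gave no call for Meg3. Combination exposed hearts were 0.285 below controls on the log2 scale, a difference of -0.285 (SE 0.239; limma unadjusted p = 0.245, adjusted p = 0.661; exact permutation p = 0.332, two-sided over 792 splits). Without control heart 5 that difference was -0.474 and was past the threshold. Diabetes exposed hearts were 0.178 (SE 0.227) above controls, with an adjusted p of 1 in limma and an exact permutation p of 0.583. Combination exposed hearts were 0.463 (SE 0.247) below diabetes exposed hearts, with an adjusted p of 0.544 in limma and an exact permutation p of 0.102.

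Dlk1 did not have the pattern of Meg3. Its highest mean was in diabetes exposed hearts, at 0.214 ± 0.321 (SD, n = 6), followed by HF diet exposed hearts at 0.19 ± 0.262 (SD, n = 5), combination exposed hearts at 0.008 ± 0.325 (SD, n = 5) and controls at -0.156 ± 0.484 (SD, n = 7). Single hearts ran from -0.835 to 0.63 in controls, from -0.111 to 0.615 with diabetes, from -0.062 to 0.594 with HF diet and from -0.251 to 0.533 with the combination, so all 4 groups overlapped. Against controls Dlk1 was 0.37 (SE 0.193) higher in diabetes exposed hearts, with an unadjusted p of 0.0677 and an adjusted p of 1 in limma, and 0.163 (SE 0.203) higher in combination exposed hearts, with an adjusted p of 0.777. The exact permutation p was 0.156 for the first and 0.549 for the second. Combination exposed hearts were 0.207 (SE 0.21) below diabetes exposed hearts, with an adjusted p of 0.738 in limma and an exact permutation p of 0.316. As descriptions, HF diet exposed hearts were 0.346 (SE 0.203) above controls for Dlk1. The difference of combination from HF diet exposed hearts was -0.182 (SE 0.219). Both have the sign of the Meg3 differences, and neither was past the threshold.

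The 5 named microRNA genes were, as group means, highest in HF diet exposed hearts. Mir323 was 0.196, -0.013, 0.502, 1.122 and 0.995 in HF diet exposed hearts 1 to 5 and 0.331, -0.624, 0.06, -0.085 and -0.05 in combination exposed hearts 1 to 5. In controls it ran from -1.122 through 0 to 0.165, and with diabetes from -0.593 through -0.13 to 0.844. HF diet exposed hearts 3, 4 and 5 were above all controls, and hearts 1 and 2 were not both above them.

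Mir539 was 0.428, 0.464, 0.4, 1.199 and 0.228 in HF diet exposed hearts 1 to 5 and -0.506, -0.578, -0.088, -0.476 and 0.077 in combination exposed hearts 1 to 5. These 2 groups did not overlap, while controls, from -0.602 to 0.379, and diabetes exposed hearts, from -0.729 to 1.087, overlapped with both. Mir382 was -0.017, 0.118, 0.302, 0.89 and 0.904 in HF diet exposed hearts 1 to 5 and 0.015, -1.052, 0.03, -0.735 and -0.028 in combination exposed hearts 1 to 5. Its low mean in the combination group came from hearts 2 and 4, and the other 3 hearts of the group were near 0.

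Mir154 was 0.033, 0.011, 0.21, 0.914 and 0.455 in HF diet exposed hearts 1 to 5 and -0.183, -0.821, -0.016, -0.312 and 0.04 in combination exposed hearts 1 to 5. Its highest value of all was 1.434, in diabetes exposed heart 3. Mir377 was -0.056, 0.085, 0.758, 0.619 and 0.463 in HF diet exposed hearts 1 to 5 and 0.155, -0.918, -0.2, 0.023 and 0 in combination exposed hearts 1 to 5. Control heart 5 had the lowest control value of all 5 microRNA genes, between -1.122 for Mir323 and -0.602 for Mir539, and it was also the control heart with the least Meg3 and Dlk1.

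**Figure D1:**
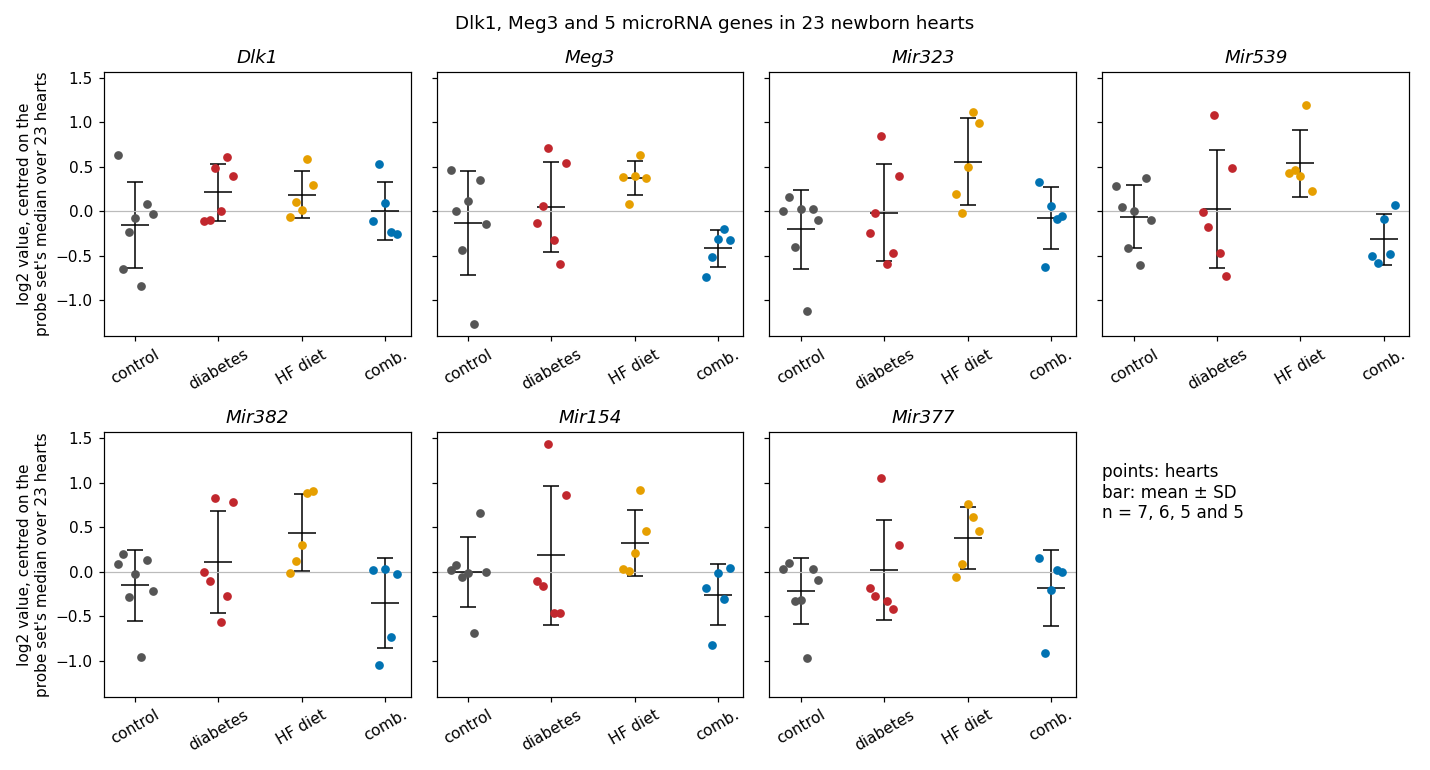
Log2 values of Dlk1, Meg3 and the 5 named microRNA genes in each of 23 hearts (points) by exposure group, with the mean and SD as bars; values are centred on each probe set's median and comb. stands for combination exposed. Meg3 of all 5 combination exposed hearts, from -0.734 to -0.197, lies below that of all 5 HF diet exposed hearts, from 0.083 to 0.632.

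Against controls, HF diet exposed hearts were higher by 0.76 (SE 0.253) for Mir323, 0.60 (SE 0.245) for Mir539, 0.59 (SE 0.26) for Mir382, 0.595 (SE 0.238) for Mir377 and 0.33 (SE 0.279) for Mir154. Combination exposed hearts differed from HF diet exposed hearts by -0.63 (SE 0.274) for Mir323, -0.86 (SE 0.264) for Mir539, -0.79 (SE 0.281) for Mir382, -0.56 (SE 0.257) for Mir377 and -0.58 (SE 0.301) for Mir154. Combination exposed hearts differed from controls by 0.126 (SE 0.253), -0.257 (SE 0.245), -0.202 (SE 0.26), 0.033 (SE 0.238) and -0.257 (SE 0.279) for the genes in the same order, with adjusted p-values between 0.702 and 0.967 in limma.

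The threshold of the study, a fold change with an unadjusted p under 0.05, corresponds to a log2 difference beyond 0.322 in either direction. With HF diet against control, 7 of the 25 probe sets were higher past it (Meg3, Mir323, Mir539, Mir382, Mir377 and the unnamed probe sets 10887064 and 10887088) and 0.686% of all probe sets were; as the choice of members rests on this contrast, on combination against HF diet and on the interaction, nothing is read from the counts of members in them or from those in diabetes against HF diet, which has the same HF diet exposed hearts. The median difference was 0.309 over the 25 probe sets and 0.013 over all probe sets. For HF diet against control Meg3 stayed past the threshold in 11 of the 23 fits that left out 1 heart, and Mir323 in 23. Meg3 was not past it with the methods' t-test, in the fit of 2 groups or with hearts of 1 code stem averaged. With the combination against HF diet, 8 of 25 were lower, against 2.92% of all probe sets, namely the same 7 and probe set 10887070. For the difference of differences, in which the effects of diabetes and of HF diet are added and taken from the effect of both, 10 of 25 were below the sum past the threshold, against 2.56% of all probe sets, and Meg3 was at -0.97 (SE 0.343). With diabetes against HF diet, Mir323 alone of the 25 was lower, at -0.57 (SE 0.262), against 0.213% of all probe sets. The other unnamed probe sets of the range differed between HF diet and control by -0.014 to 0.337.

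In the comparisons that did not themselves choose the members, but share hearts with those that did, calls were few. Combination against control gave 0 of 25 past the threshold in limma, where 3.31% of all probe sets passed, and 1 of 25 at an unadjusted p under 0.05 alone, where 2889 of the 29170 probe sets were. The methods' t-test also gave 0. The median difference was -0.002 over the 25 probe sets and 0.002 over all. Diabetes against control gave 1 of 25, with 0.305% of all probe sets past the threshold, and combination against diabetes gave 1 of 25, with 3.04% of all. Both calls were probe set 10887070. It was -0.077, 0.142, 0.711, 0.331, -0.226 and 0.789 in diabetes exposed hearts 1 to 6 and between -0.27 and 0.146 in controls, a difference of 0.32 (SE 0.149; limma unadjusted p = 0.0409, adjusted p = 1). It was 0.49 (SE 0.162) lower in combination than in diabetes exposed hearts, a difference of -0.492 (limma unadjusted p = 0.00603, adjusted p = 0.528). None of the 29170 probe sets, members included, had an adjusted p under 0.05 in limma in any of the 6 pairwise comparisons or in the interaction.

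The ends of the identifier range do not mark a change in the values on both sides. Mir323, the first inside, was 0.76 higher in HF diet exposed hearts than in controls, and Mir380, the last before it, was 0.60 higher (SE 0.309). Mir377, the last inside, was 0.595 higher, and the unnamed probe set 10887102, just after it, was 0.055 (SE 0.135) higher. Mir493 and Mir341, microRNA genes nearer to Meg3, were 0.595 (SE 0.296) and 0.232 (SE 0.161) higher. In combination exposed hearts Mir493, Mir341 and Mir380 were lower than in HF diet exposed hearts by differences of -0.78 (SE 0.32), -0.45 (SE 0.174) and -0.84 (SE 0.334).

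Between Meg3 and the range lie 117 further probe sets by identifier, of which 3 are Mir493, Mir341 and Mir380 and 114 are unnamed. Only 71 of the 117 rows are distinct, since the others repeat the values of an earlier row. In rodents this interval is known for long runs of repeated C/D box small nucleolar RNA genes, and whether the unnamed probe sets read those was not examined. All 117 were on average higher in HF diet exposed hearts than in controls, with a median difference of 0.433 and a range of 0.007 to 0.95. Of the 117, 85 were past the threshold (72.6%), against 0.686% of all probe sets. With identical rows counted once, 40 of 71 were. In combination exposed hearts 2 of 117 were past the threshold against controls, both higher (1.71%, against 2.1% of all probe sets), with a median difference of 0.222. Past the threshold, 15 of 117 were lower than in HF diet exposed hearts (12.8%, against 2.92% of all probe sets). HF diet against control and combination against HF diet are contrasts on which the members were chosen. Of these 117 probe sets, 94 varied with Meg3 within groups. Their counts in the 2 contrasts are therefore descriptions and not separate from the choice. Averaged over the 117 probe sets, HF diet exposed hearts 1 to 5 were at -0.114, 0.069, 0.548, 0.996 and 0.396, and combination exposed hearts 1 to 5 at 0.334, 0.183, 0.153, -0.211 and -0.108. Here the combination exposed hearts that were lowest for Meg3, hearts 1 and 2, were the highest of their group.

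**Figure D2:**
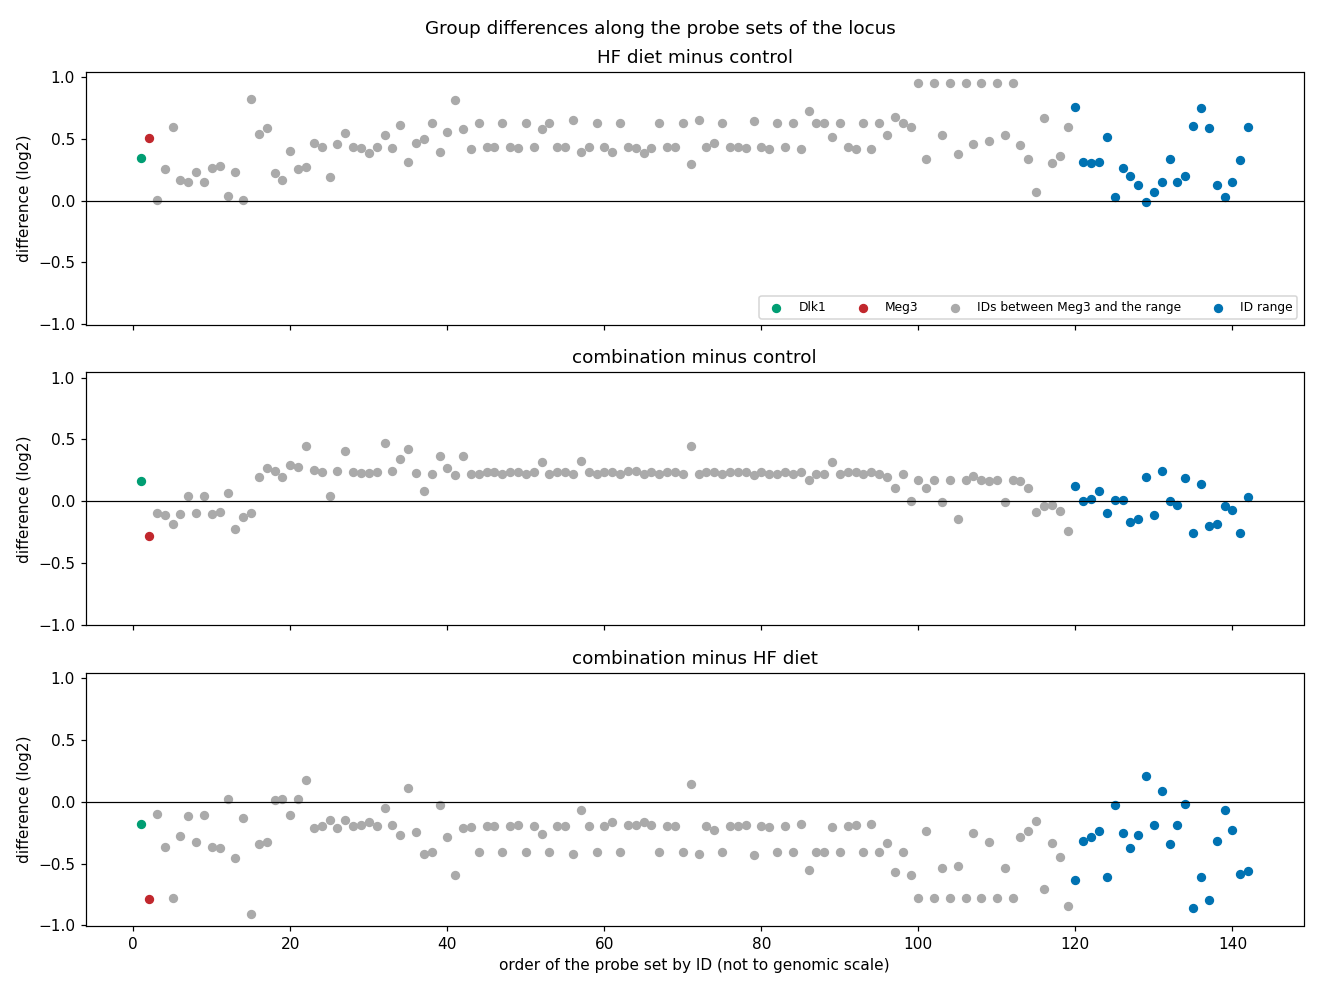
Differences between group means (log2) for Dlk1, Meg3, the 117 probe sets between Meg3 and the identifier range, and the 23 probe sets of the range, each point 1 probe set in the order of its identifier, not to genomic scale. HF diet minus control is above 0 for all 117 probe sets in between, with a median of 0.433, and lies between -0.014 and 0.76 in the range.

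The excess in HF diet exposed hearts was unequal between code stems. For Mir323 the mean was 0.873 in hearts 3, 4 and 5, which share a stem, and 0.092 in hearts 1 and 2, against -0.2 in controls. It was 0.613 and 0.015 for Mir377, 0.699 and 0.05 for Mir382, and 0.526 and 0.022 for Mir154. Mir539, at 0.609 and 0.446, and Meg3, at 0.467 and 0.237, differed less between the stems. All 3 hearts of the shared stem were above both other hearts in 12 of 23 probe sets of the range (52.2%) and in 99 of the 117 in between (84.6%), against 9.88% of all probe sets. The 117 hold repeated rows, 71 being distinct, and the share over distinct rows was not computed. With the hearts of 1 stem averaged before the fit, 1 of 25 members was past the threshold for HF diet against control (probe set 10887088), 1 for combination against HF diet (Mir539), and 0 of the 117 in between for HF diet against control. Over all probe sets, averaging by stem took the share past the threshold in either direction from 0.943% to 0.384% for HF diet against control and from 5.76% to 3.57% for combination against HF diet. Without HF diet exposed heart 4 these counts, which were 7, 8 and 85 with all hearts, were 2, 3 and 11, while over all probe sets the shares of the 2 comparisons were 0.603% and 5.8%. Without control heart 5 the first was 2 (0.692% of all probe sets) and the last 40, without combination exposed heart 2 the second was 4 (3.85% of all), and without HF diet exposed heart 3 or heart 5 the last was 20 or 44, with 0.521% or 1.2% of all probe sets past the threshold. HF diet exposed hearts 1 and 2, of other stems, were on average 0.366 above controls for Meg3, 0.503 for Mir539 and 0.613 for probe set 10887088, and 0.291 for Mir323, 0.235 for Mir377, 0.202 for Mir382 and 0.023 for Mir154. The part of the shared stem in the group difference was not tested.

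**Figure D3:**
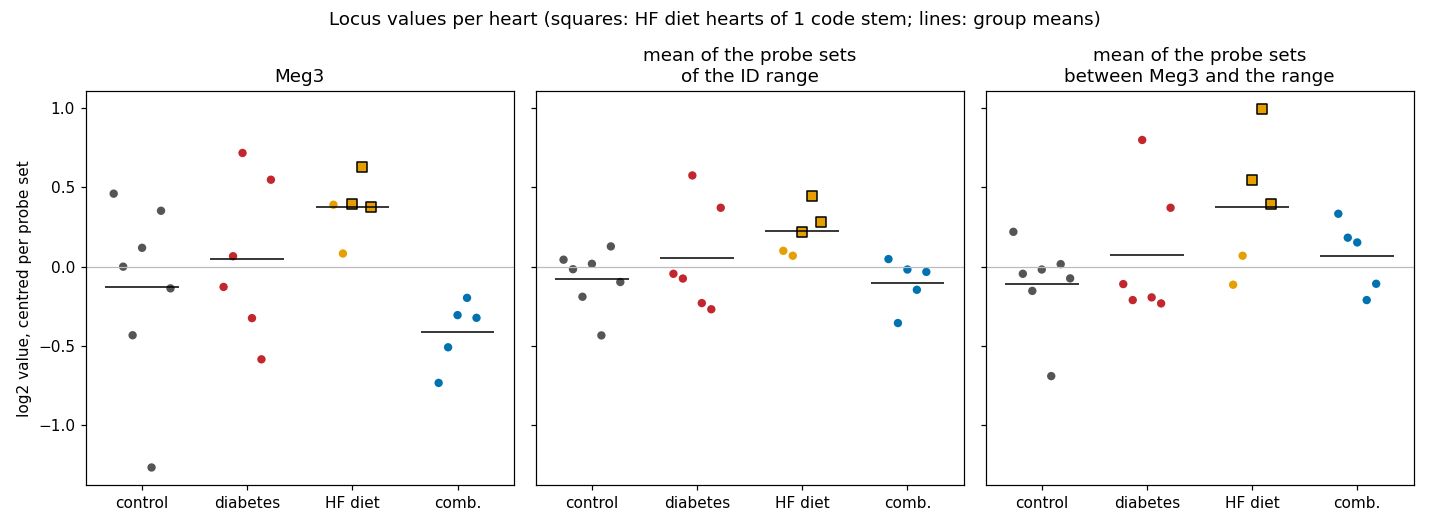
Log2 values per heart of Meg3, of the mean over the 23 probe sets of the range and of the mean over the 117 probe sets between, by group; squares are the 3 HF diet exposed hearts that share a code stem and lines are group means. In the mean over the 117 probe sets the squares lie between 0.396 and 0.996 and the other 2 HF diet exposed hearts at -0.114 and 0.069.

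From heart to heart within a group, the microRNA probe sets followed Meg3. To measure this, the Meg3 value of each heart was added to the group means as a covariate and a slope was fitted for each of the other 29169 probe sets. In the range, 17 of 23 had a positive slope at an adjusted p under 0.05 in limma (73.9%), against 12.1% of all probe sets, and 0 had a negative one. All 5 named microRNA genes were among the 17. The slope was 0.909 (SE 0.162; adjusted p = 0.000715 in limma) for Mir154, 0.842 (SE 0.13; adjusted p = 0.000248) for Mir539 and 0.825 (SE 0.148; adjusted p = 0.000731) for Mir323, in log2 units per log2 unit of Meg3. It was 0.761 (SE 0.171; adjusted p = 0.00343 in limma) for Mir382 and 0.715 (SE 0.152; adjusted p = 0.00239) for Mir377. The 6 probe sets that did not pass were all unnamed, with slopes from -0.099 to 0.239.

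For Dlk1 the slope was 0.418 (SE 0.161), with an adjusted p of 0.0641 in limma. The correlation of its deviations from the group means with those of Meg3 was 0.49 (permutation p = 0.0494) and the rank correlation 0.36 (permutation p = 0.132). Without control heart 5 and combination exposed heart 1, the hearts farthest from the median of Meg3, the correlation was 0.28. The share of each of these hearts in that fall was not computed. For the 5 named microRNA genes the within-group correlation with Meg3 was between 0.70 and 0.82. The permutation p-values, drawn within groups, lay between 1e-05 for Mir539, the smallest that these permutations can give, and 0.00078 for Mir382. The rank correlations were between 0.63 and 0.85, with permutation p-values of 0.00282 at most. Without the same 2 hearts the correlations were between 0.71 and 0.86. Adjusted values over all probe sets are those of the slopes given above, and 6 such relations were computed for single genes. Among themselves the 5 microRNA genes had within-group correlations between 0.74 (Mir323 with Mir539, and Mir539 with Mir377) and 0.93 (Mir323 with Mir382).

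**Figure D4:**
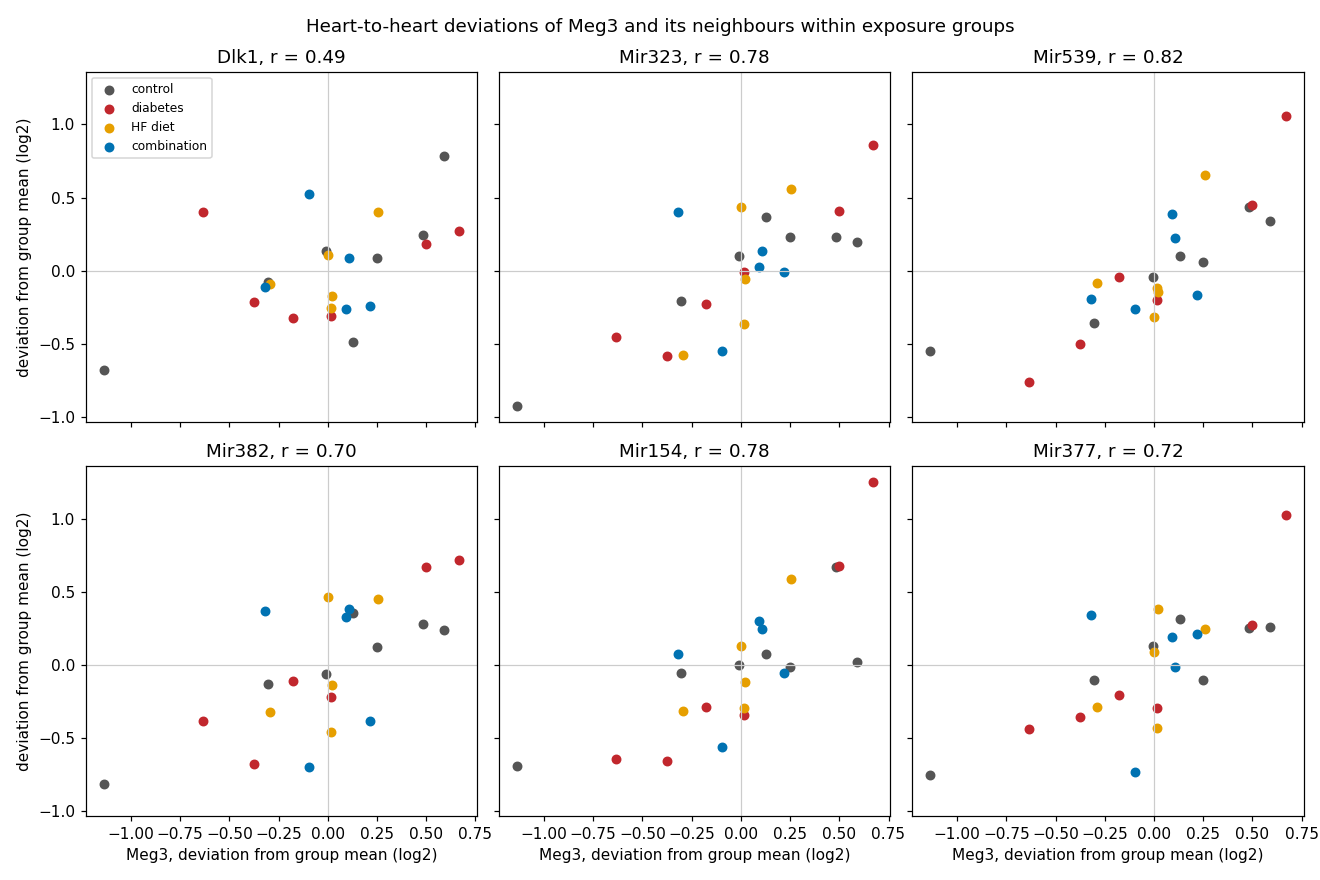
Deviation of each heart from its group mean (log2) for Meg3 on the horizontal axis and for Dlk1 and the 5 named microRNA genes on the vertical axes, 23 hearts coloured by group, with Pearson's r in each title. The microRNA genes have r between 0.70 and 0.82 and Dlk1 has 0.49.

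Many other genes varied with Meg3 as well. Meg3 had a correlation of 0.85 over the 23 hearts with the first principal component of the arrays, computed without the 142 probe sets of the locus and holding 28.9% of the variance; for the mean of the range the correlation was 0.62 and for Dlk1 it was 0.17. With that component as a further covariate, 3 of 23 probe sets of the range still followed Meg3 at an adjusted p under 0.05 in limma (13%), against 0.394% of all probe sets: Mir323 (adjusted p = 0.0266) and the unnamed 10887064 (adjusted p = 0.0266) and 10887080 (adjusted p = 0.0364). Of the 117 probe sets in between, 94 followed Meg3 without that covariate (80.3%) and 82 with it (70.1%). Only 71 of these 117 rows are distinct, so repeated rows are counted more than once. The number of distinct rows that followed was not computed, and these shares are not set against those of the range. Dlk1 had an adjusted p of 0.0485 in the fit with the component. The slopes of the 5 named microRNA genes on Meg3 were not smaller in that fit, at 1.285 for Mir323, 1.255 for Mir382, 1.252 for Mir154, 0.878 for Mir539 and 0.862 for Mir377, with adjusted p-values in limma of 0.0563 for Mir382, 0.0544 for Mir154, 0.113 for Mir539 and 0.183 for Mir377. Given the component, their within-group partial correlations with Meg3 were between 0.57 and 0.76, and that of Dlk1 was 0.71. What the component stands for was not tested.

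By correlation over the 23 hearts, which holds group differences and array quality as well as the locus, the genes most like Meg3 lay elsewhere in the genome. The highest correlations among probe sets with 1 gene symbol were those of Aff4 at 0.94, a scaffold of a transcription elongation complex, Sfswap at 0.93, a splicing regulator, Leng8 at 0.92 and, in another probe set, 0.896, and Tnrc6a at 0.91, a partner of Argonaute in microRNA silencing. They were followed by Adarb1, an RNA editing enzyme, at 0.898, Cpeb4 and Chd2 at 0.891, Stxbp5 at 0.887 and Ccnl2 at 0.885. All 10 probe sets differed less than Meg3 between HF diet exposed hearts and controls (0.139 to 0.281) and between combination and HF diet exposed hearts (-0.68 to -0.244). Between combination exposed hearts and controls they differed by -0.415 to -0.105, where both probe sets of Leng8 and that of Chd2 lay beyond the -0.285 of Meg3. Of the other 29169 probe sets, 293 had a correlation above 0.8 with Meg3, 6 of them in the range and 6 between Meg3 and the range. Among the members that correlation was 0.87 for Mir539 and probe set 10887064, 0.81 for Mir154, 0.79 for Mir323 and Mir382, 0.77 for Mir377 and 0.51 for Dlk1.

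Of the 8 genes listed for the DLK1-DIO3 domain, 4 were measured by name, and the other 2 besides Meg3 and Dlk1 are Begain and Dio3. Begain, at the edge of the domain, differed from controls by -0.011 (SE 0.069) with HF diet, 0.002 (SE 0.065) with diabetes and -0.019 (SE 0.069) with the combination. Dio3, the deiodinase that inactivates thyroid hormone, was 0.189 (SE 0.054) higher with diabetes than in controls, with an unadjusted p of 0.00181 and an adjusted p of 1 in limma, which is short of the log2 difference the threshold asks for. It was 0.123 (SE 0.056) higher with HF diet and 0.098 (SE 0.056) higher with the combination. Of the 13 measured genes that flank the domain, 0 passed the threshold for combination against control, and for combination against HF diet Cinp was higher, by 0.341 (SE 0.159), and Dync1h1, the heavy chain of dynein, lower, at -0.363 (SE 0.142). For this list and those below, 2.1% of all probe sets were higher and 1.2% lower past the threshold for combination against control. For combination against HF diet 2.84% were higher and 2.92% lower, and for HF diet against control 0.686% and 0.257%.

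Among genes that process or use microRNAs, 13 of 18 were measured. For combination against control 1 was past the threshold, Tnrc6b at -0.345 (SE 0.141; limma adjusted p = 0.495), and the median difference of the list was -0.098 against 0.002 over all probe sets. For combination against HF diet 3 genes were lower past the threshold: Dicer1, which cuts the hairpin into the mature duplex, at -0.379 (SE 0.122), Dgcr8, the partner of Drosha in the nucleus, at -0.424 (SE 0.162), and Tnrc6b at -0.422 (SE 0.153) and -0.685 (SE 0.213) in its 2 probe sets, all with an adjusted p of 0.368 in limma. The median of the list was -0.219, against -0.011 over all probe sets. No gene of the list passed for HF diet or diabetes against control. The mean of the list had a correlation of 0.64 with Meg3 over the 23 hearts.

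Of 22 measured imprinted genes of other domains, Ppp1r9a was past the threshold for combination against control, at -0.413 (SE 0.155; limma adjusted p = 0.495). For combination against HF diet 4 were lower and 0 higher, against 2.92% and 2.84% of all probe sets. The 4 were Ppp1r9a at -0.554 (SE 0.167), the zinc finger factor gene Plagl1 at -0.46 (SE 0.174), Nnat at -0.389 (SE 0.143) and the non-coding RNA H19 at -0.368 (SE 0.15), each with an adjusted p of 0.368 in limma. The median difference of the list was -0.093, against -0.011 over all probe sets. Of 16 measured Polycomb and imprint maintenance factors, Zfp57, which keeps methylation at imprinted loci, was lower for combination against HF diet, at -0.348 (SE 0.147; limma adjusted p = 0.368), and 0 passed against control. Of 17 Notch ligands, receptors and targets, listed because Dlk1 belongs to the Notch ligand family, Notch2 was lower for combination against control, at -0.354 (SE 0.167; limma adjusted p = 0.502).

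Markers of the cell types a heart holds were counted over the same contrasts, beside the same shares of all probe sets. In whole hearts, fewer cells of a type and less RNA per cell cannot be told apart. For HF diet against control 0 of 15 cardiomyocyte markers, 0 of 14 fibroblast and mesenchyme markers and 0 of 11 endothelial markers passed the threshold, with median differences of -0.001, 0.008 and 0.089. Of 10 smooth muscle and pericyte markers Myh11 was higher, by 0.346 (SE 0.162), and of 10 erythroid markers Hbe1 was higher, by 0.864 (SE 0.4). For combination against HF diet 4 erythroid probe sets, of Ahsp, Car1 and Rhag, were higher, with a median of 0.31 over the list, and Lyz2 was higher among 11 immune markers, by 0.897 (SE 0.4). Both probe sets of Rhag had the same difference, 0.608 (SE 0.282). Single markers were lower in that contrast in 2 lists, Ryr2 at -0.446 (SE 0.196) and Tie1 at -0.371 (SE 0.128). For combination against control Ahsp and Car1 were higher, by 1.378 (SE 0.428) and 0.623 (SE 0.289), with an erythroid median of 0.492. Nppb and Myh3 were higher, by 0.435 (SE 0.151) and 0.323 (SE 0.117), and Cd4 was lower, at -0.533 (SE 0.251). For diabetes against control Ahsp, Hbe1, Slc4a1, Car1 and Myh11 were higher and Cd4 lower, where 0.305% of all probe sets passed. Over the 23 hearts the mean of the cardiomyocyte list had a correlation of 0.69 with Meg3 and ran from -0.198 to 0.009 in combination exposed hearts and from -0.037 to 0.086 in HF diet exposed hearts. The correlation with Meg3 was 0.56 for the mean of the endothelial list, 0.52 for smooth muscle and pericyte markers, 0.34 for skeletal muscle markers, 0.29 for fibroblast and mesenchyme markers, 0.12 for neural markers, -0.08 for immune markers and -0.29 for erythroid markers. For lung and thymus markers it was 0.37, and 0.61 without control heart 1. The mean of the lung and thymus markers was high in 3 hearts, but the thymus markers were high only in control heart 1. All 9 measured markers, from 1.085 for Sftpd to 6.264 for the club cell gene Scgb1a1, were high in control heart 1, and without this heart the members past the threshold for HF diet against control numbered 11, with 1.02% of all probe sets. HF diet exposed heart 4 and diabetes exposed heart 3, each the highest of its group for Meg3, had Scgb1a1 at 4.218 and 3.917 and Sftpa1, a surfactant protein gene, at 1.189 and 0.526. The surfactant genes Sftpb, at 0.34 and 0.358, and Sftpd, at 0.446 and 0.341, were above the highest of the remaining 20 hearts as well, at 0.219 and 0.154, and Sftpc, at 0.033 and -0.018, was not, with 0.444 as the highest of those hearts. The highest Scgb1a1 among the remaining 20 hearts was 1.441. In HF diet exposed heart 4 and diabetes exposed heart 3 the thymus markers were not above the highest of those hearts. Rag1 was at 0.154 and -0.028 (highest of the others 0.396), and Cd8a at 0.23 and -0.032 (0.369). Cd4 was at 0.11 and -0.298 (0.518), and Dntt at 0.027 and -0.028 (0.259). With these 3 hearts left out together, 6 of 25 members were past the threshold for HF diet against control (0.857% of all probe sets). There were 6 for combination against HF diet (5.91% of all) and 0 for combination against control (1.94% of all). Of the 117 probe sets in between, 59 were past the threshold for HF diet against control. In the range 13 of 23 followed Meg3 within groups, and the share of all probe sets that did so in this fit was not computed. The part of cell composition in the values of the locus was not tested.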

How the data were processed

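Whole hearts of 23 newborn rats were each read on 1 Affymetrix Rat Gene 1.0 ST array. Per the methods, the authors averaged probe intensities per set and normalised them in GeneSpring GX, with an algorithm that the methods do not name. The authors deposited log2 values of 29170 probe sets, centred on each probe set's median, and these were used as they are. The centring removes levels, so dim probe sets were kept and signal over background is unknown; the number of arrays limits precision. Of the probe sets, 15310 carry 1 gene symbol in the array annotation (15279 matched to RefSeq by Entrez identifier), 323 carry several and 202 were named through the identifiers printed with the study. The microRNA sequences are from RefSeq (GRCr8), and all 5 named microRNA genes of the range were matched. 198 rows repeat an earlier row.

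limma 3.58.1 (R 4.3.3; lmFit and eBayes) estimated the 4 group means from the 23 hearts together, with Benjamini-Hochberg adjustment over all probe sets. The second fit added the Meg3 value of each heart. Permutation tests were two-sided, exact for differences between groups and with 1e+05 draws within groups for correlations. Both fits were tested on simulated data. The members and the gene lists were chosen with earlier results of these data known. Named genes are the named members, microRNAs of the domain named in the study, measured domain genes, the 10 probe sets most correlated with Meg3 and up to 4 members of each other list by smallest p. Alternatives were leaving out each heart, quantile normalization, a replicate block, averaging by code stem, array weights, the methods' t-test, fits of 2 groups, and the first principal component as a covariate. Numbers of replicates are not stated to pair hearts. Hearts of the same number in different groups had a mean correlation of deviations of -0.005, and hearts of different numbers 0.002. Comparison columns of the study were not used.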

Additional observations from a re-analysis of the deposited data

Results flagged for a closer look

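Of 28 combinations of the 7 named genes with the 4 groups, 3 held a heart that stood apart from the rest of its group by Dixon's test, which by chance takes about 1 group in 20. Mir539 was 1.199 in HF diet exposed heart 4, where the other 4 hearts of the group ran from 0.228 to 0.464. Control heart 5 stood apart for Mir382, at -0.962, and for Mir377, at -0.97. The effect of HF diet in the presence of maternal diabetes less its effect without diabetes was -0.967 for Meg3, -0.821 for Mir323, -0.948 for Mir539, -1.055 for Mir382 and -0.806 for Mir377, each with an adjusted p of 0.672 in limma. These values stand out by an unadjusted p under 0.05 of the interaction term, and since the contrast is among those on which the members were chosen, they are a description.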

How the results depend on the processing

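The difference of Meg3 between combination exposed hearts and controls kept its direction under every alternative run for it and stayed short of the threshold except without control heart 5; it ran from -0.474 to -0.186 over the 23 fits that left out 1 heart. Counts of the 25 members past the threshold ran over the same fits from 0 to 1 for combination against control, from 2 to 11 for HF diet against control and from 3 to 10 for combination against HF diet, and the 17 probe sets of the range that followed Meg3 ran from 14 to 18. The shares of all probe sets past the threshold ran from 1.19% to 7.21%, from 0.521% to 1.54% and from 1.97% to 10.3% in the same order of comparisons. With hearts of 1 code stem averaged, HF diet against control fell from 7 to 1 and combination against HF diet from 8 to 1, and over all probe sets from 275 to 112 and from 1679 to 1042. With the first principal component as a covariate the number that followed Meg3 was 3. That component had a correlation of 0.84 with Meg3 within groups. With the replicate block the number that followed was 8, the difference of Meg3 was -0.188 and the counts were 0, 10 and 9. Of all probe sets 2.17%, 1.39% and 5.68% were past the threshold in that fit. Why fewer followed Meg3 with the replicate block or with the component was not tested. Pairs of hearts with the same number in different groups had correlations of deviations from -0.422 to 0.559. Hearts correlated best with a heart of their own number in 7 of 23 cases. Without the 3 hearts high in lung markers, an alternative added after seeing the data, no count of the members changed by more than 1.5 times. The counts of the 117 probe sets between Meg3 and the range, added after seeing the data, ran from 11 to 98 without 1 heart, with 0 after averaging by stem and 40 with identical rows counted once. The cause of these shifts was not tested, and averaging by stem also left fewer values in the fit.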
